A study of Homo sapiens with 48 samples.

Results

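The genes described here encode the endoplasmic reticulum (ER) stress sensors other than IRE1, and the proteases that cut some of them. They are ATF6, ATF6B, EIF2AK3 (which encodes PERK), MBTPS1, MBTPS2, CREB3 and CREB3L2. They were taken by symbol from the deposited table of RNA-seq counts, in which these 7 symbols each named 1 of 58302 genes, and all 7 passed the filter on low counts in every fit. AMO1, a cell line established from human multiple myeloma, was the source of the RNA. Its cells carried doxycycline (Dox)-inducible short hairpin RNAs against IRE1 or XBP1. The former are called shIRE1 (labelled IRE1 sh7,8,9, clones 1 and 3) and the latter shXBP1 (labelled XBP1 sh4,6,7, clones 1 and 18). Each of the 4 clones received 0.2 µg/ml Dox for 0, 24, 48 or 72 h, in 3 replicates, which gave 16 groups and 48 libraries. Every clone, including its 0 h cells, carried the hairpin vector and grew from a single cell, so each stands for 1 clone and not for the line. No non-targeting hairpin was analysed here, so a change on Dox includes any effect of Dox and of hairpin expression as such. The labels do not say that replicates were separate cultures, and p-values then measure only the spread between these samples, which may be technical.

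When unfolded proteins build up in the ER, the unfolded protein response is set off by sensors that sit in the ER membrane. IRE1 (gene ERN1) splices the XBP1 mRNA, and the XBP1 protein made from it induces chaperones, folding enzymes and degradation factors. PERK is a kinase that phosphorylates the translation factor eIF2 and so slows protein synthesis while letting ATF4 be made. ATF6 and ATF6B are membrane-bound transcription factors that move to the Golgi, where site-1 protease (MBTPS1) and then site-2 protease (MBTPS2) release their soluble part. CREB3 and CREB3L2 belong to a family of related membrane-bound factors released by the same kind of cleavage, and CREB3L2 is known for inducing coat proteins of secretory transport such as SEC23A. Plasma cells and myeloma cells secrete large amounts of antibody chains and depend on this system. The comparisons below address what happened to the mRNA of the other sensors when IRE1 itself, or only its target XBP1, was silenced.

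The libraries held 19177855 to 40767202 counts each, and the members with the lowest counts, CREB3 and MBTPS2, had at least 525 and 612 counts in every library. Levels are given as CPM, the counts of a gene relative to the total of its library after scaling by the trimmed mean of M-values (TMM). A gene was called where the adjusted p (edgeR quasi-likelihood test, Benjamini-Hochberg over all genes tested) was under 0.05. In bulk libraries a lower level in each cell and fewer cells with the mRNA cannot be told apart. The plasma cell markers SDC1, TNFRSF17, PRDM1, IRF4, CD38 and SLAMF7 were detected in all 48 libraries, with SDC1 at 5126 CPM or more. The library labelled shXBP1 clone 18, 72 h, replicate 3 stood apart. Across 12009 genes its mean correlation was 0.996 with shXBP1 clone 1 at 72 h and 0.979 with its fellow replicates. On the signed mean log2 CPM of the 200 genes that differed most between the shXBP1 clones at 0 h it lay at -1.12, inside the -1.13 to -1.07 of shXBP1 clone 1 at 72 h, while those replicates lay at -2.79 and -2.78. Replicate 1 of shIRE1 clone 3 at 24 h also correlated best with another clone (0.996 with shIRE1 clone 1 at 24 h, 0.993 with its own clone), but on the like measure for the shIRE1 clones it lay at -2.08, beside its fellows (-2.15 and -2.12) and below shIRE1 clone 1 at 24 h (-1.90 to -1.84). The 72 h values of the members in shXBP1 clone 18, and the calls that these libraries change, are also given without them.

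**Figure D1:**
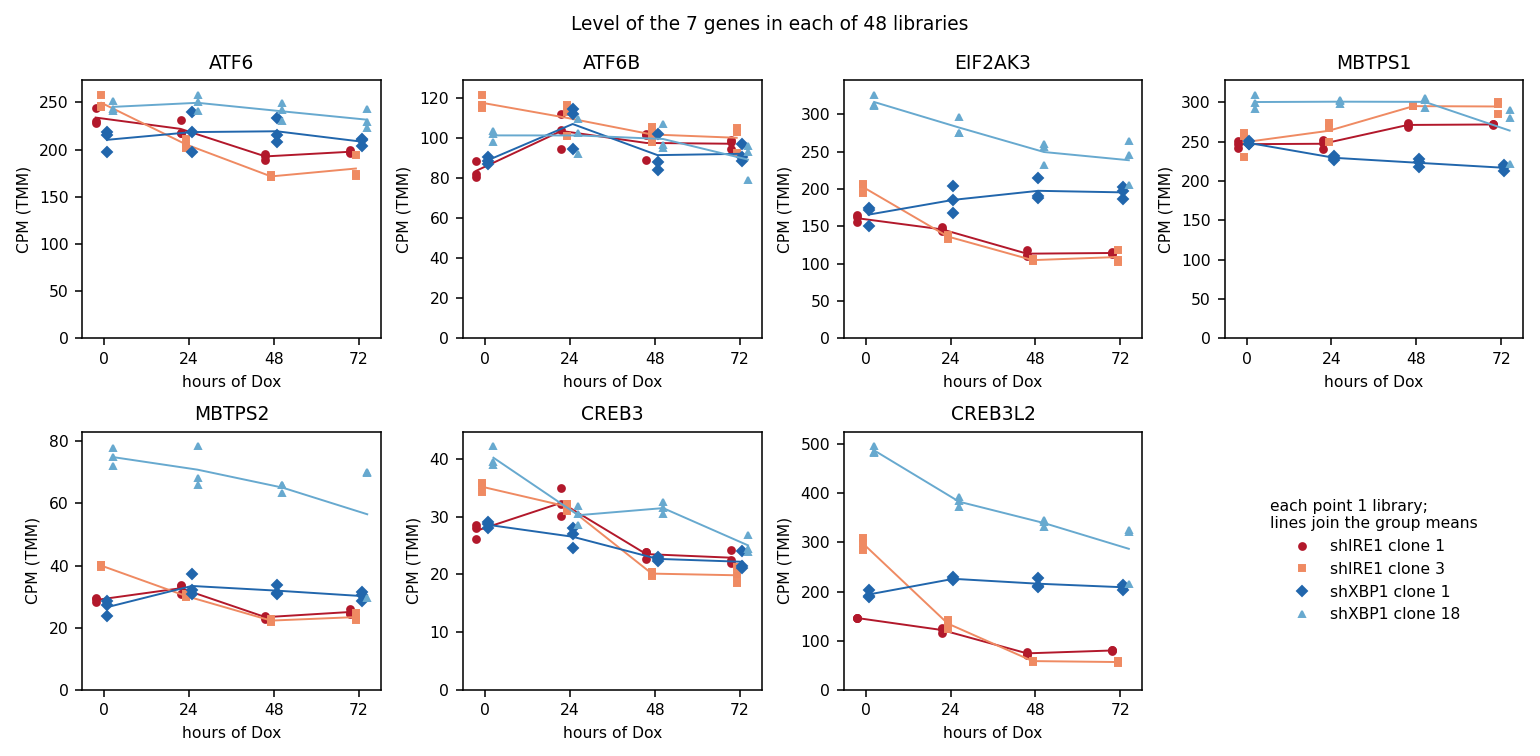
Level of each of the 7 genes (y axis, CPM after TMM scaling, from 0) against hours of Dox (x axis; the clones are set slightly apart so that points do not hide each other). Each point is 1 library, lines join the group means, red and orange mark the shIRE1 clones and dark and light blue the shXBP1 clones. CREB3L2 and EIF2AK3 fall in both shIRE1 clones, and in MBTPS2 and CREB3L2 one library of shXBP1 clone 18 at 72 h lies with shXBP1 clone 1.

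Promoters of 4 members are printed to show what lies at their starts. CREB3L2 and EIF2AK3 fell most in both shIRE1 clones at 72 h, ATF6 gives its name to a branch, and MBTPS1 was the member higher in both. The sequences run from 250 bases before to 50 bases after the start site, as RefSeq gives them for GRCh38.p14, where all 7 members had an entry. Capitals mark matches on either strand to CCAAT, to CCACG, to ACGTG and to the cyclic AMP response element.
CREB3L2 (chr7:138002037-138002336, minus strand): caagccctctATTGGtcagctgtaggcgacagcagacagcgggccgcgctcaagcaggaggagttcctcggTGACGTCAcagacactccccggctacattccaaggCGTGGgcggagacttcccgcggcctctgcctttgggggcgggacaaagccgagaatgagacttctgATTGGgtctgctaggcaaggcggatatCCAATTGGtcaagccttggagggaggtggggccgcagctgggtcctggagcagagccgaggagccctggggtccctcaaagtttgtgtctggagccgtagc
EIF2AK3 (chr2:88627415-88627714, minus strand): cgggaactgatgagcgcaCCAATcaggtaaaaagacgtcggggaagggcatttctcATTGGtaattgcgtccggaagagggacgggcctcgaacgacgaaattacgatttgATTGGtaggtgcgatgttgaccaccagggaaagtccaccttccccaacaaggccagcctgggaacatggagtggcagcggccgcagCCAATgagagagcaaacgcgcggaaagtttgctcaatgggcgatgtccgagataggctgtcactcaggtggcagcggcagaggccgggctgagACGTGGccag
ATF6 (chr1:161766070-161766369, plus strand): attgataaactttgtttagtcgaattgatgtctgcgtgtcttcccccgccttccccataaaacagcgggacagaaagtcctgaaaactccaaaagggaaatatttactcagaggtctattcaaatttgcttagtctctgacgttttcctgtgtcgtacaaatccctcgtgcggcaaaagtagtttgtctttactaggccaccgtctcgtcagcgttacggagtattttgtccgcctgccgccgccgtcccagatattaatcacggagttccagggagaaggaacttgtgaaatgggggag
MBTPS1 (chr16:84116893-84117192, minus strand): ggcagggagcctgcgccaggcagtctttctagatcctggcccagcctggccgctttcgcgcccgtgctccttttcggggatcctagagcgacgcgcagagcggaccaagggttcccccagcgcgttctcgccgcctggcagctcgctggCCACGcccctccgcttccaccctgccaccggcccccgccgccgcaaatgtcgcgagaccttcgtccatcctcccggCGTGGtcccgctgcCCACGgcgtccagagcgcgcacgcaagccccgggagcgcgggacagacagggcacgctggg

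Motifs were searched on both strands of all 35116 promoters of this length. The complete ER stress element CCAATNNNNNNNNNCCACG, read by ATF6 and XBP1, stood in 0.0769% of all promoters and ERSE-II (ATTGGNCCACG) in 0.0541%, and none of the 7 members' promoters held either. CCAAT was found in 34.6%, CCACG in 38.1% and ACGTG in 21.4% of all promoters. The CREB3L2 promoter, the first of 2 that RefSeq lists, held 4 CCAAT matches, of which the last pair overlap, 1 CCACG match, and the cyclic AMP response element TGACGTCA, which stood in 1.85% of promoters and in no other member's. The EIF2AK3 promoter held 4 CCAAT matches and overlapping ACGTG and CCACG, and MBTPS1 held 3 CCACG matches. The promoter of ATF6B held 1 CCAAT match beside ACGTG, and that of CREB3 held 2 CCACG matches beside ACGTG. ATF6 and MBTPS2 held no match to any motif searched. Of the other motifs searched, TGACGTG (1.97% of promoters), GGAANNGAAA (2.82%) and GAAANNGAAA (3.57%) were in no member, and TTTCGCGC (0.515%) was in that of MBTPS1. A match describes the letters and is not a bound site.

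In GENCODE 44 on GRCh38, ATF6 spans chr1:161766298-161977574 (plus strand), ATF6B chr6:32115264-32128253 (minus), EIF2AK3 chr2:88556741-88691518 (minus), MBTPS1 chr16:84053761-84116942 (minus), MBTPS2 chrX:21839617-21885423 (plus), CREB3 chr9:35732598-35736999 (plus) and CREB3L2 chr7:137874979-138002086 (minus). The processing notes of the series name GRCh37, so these positions describe the genes and were not used to count. Exon bases of ATF6, MBTPS1 and CREB3L2 overlapped no other annotated gene. MBTPS2 shared 1093 exon bases (12.2%) with YY2 on the same strand, CREB3 shared 134 (8.20%) with GBA2 on the opposite strand, and ATF6B shared 71 (1.96%) with TNXB and 289 (7.96%) with a long noncoding RNA on the same strand. EIF2AK3 shared 781 (3.77%) with an opposite-strand long noncoding RNA. Whether counting used the strand is not given in the sources used here, so reads from these stretches may be split or lost.

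The targeted genes were lower where the labels say so. ERN1, the gene of IRE1, stood at 151, 152 and 155 CPM at 0 h and 104, 102 and 102 at 72 h in shIRE1 clone 1, a log2 fold change of -0.58 ± 0.040 (standard error, SE; n = 3 per group in all comparisons, edgeR adjusted p = 3.36e-10). It went from 414, 447 and 436 to 123, 125 and 129 CPM in shIRE1 clone 3 (-1.82 ± 0.049, edgeR adjusted p = 3.99e-13). ERN1 remained at 0.671 and 0.283 times its 0 h level. XBP1 at 72 h was at 0.200 times its 0 h level in shXBP1 clone 1 (-2.32 ± 0.071, edgeR adjusted p = 5.71e-09) and at 0.223 times in shXBP1 clone 18 (-2.16 ± 0.086, edgeR adjusted p = 2.05e-08). Each silenced gene was lower in both clones of its pair. The other gene of the pathway moved too. ERN1 rose in shXBP1 clone 1 at 72 h (0.72 ± 0.044, edgeR adjusted p = 8.74e-07) and fell in shXBP1 clone 18 (-0.29 ± 0.060, edgeR adjusted p = 0.0119). In that clone XBP1 changed by -2.05 ± 0.060 and ERN1 by -0.22 ± 0.046 without replicate 3 of 72 h (edgeR adjusted p = 3.74e-11 and 0.00972). XBP1 fell in both shIRE1 clones (-0.38 ± 0.037 and -0.86 ± 0.063, edgeR adjusted p = 3.45e-08 and 1.50e-08), as did the XBP1 targets DNAJB9 (-1.39 ± 0.065 and -2.42 ± 0.089, edgeR adjusted p = 9.99e-13 and 7.15e-12) and EDEM1 (-0.66 ± 0.041 and -1.93 ± 0.049, edgeR adjusted p = 7.29e-11 and 2.88e-13).

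On Dox the shIRE1 clones changed the mRNA of most of these sensors. At 48 h and at 72 h all 7 members were called in both shIRE1 clones, and 5 of them (ATF6, EIF2AK3, MBTPS2, CREB3 and CREB3L2) were lower and MBTPS1 higher in each. ATF6B was higher in shIRE1 clone 1 and lower in clone 3. The counts stand against a wide response, in which a large share of all genes was called in each direction. In shIRE1 clone 1, 3 members were called higher and 3 lower at 24 h, against 32.4% of all genes tested called higher and 29% lower. There were 2 higher and 5 lower at 48 h, against 33.9% and 31.5%, and again at 72 h, against 32.5% and 31.1%. For shIRE1 clone 3, 5 members were called lower at 24 h, where 22.8% of genes were called higher and 23.3% lower, and 4 without replicate 1 of 24 h (23.6% and 24.3%). That clone then had 1 member higher and 6 lower at 48 h, against 31.6% and 31.6%, and the same split at 72 h, against 29.7% and 30.5%. The median log2 fold change of the 7 members at 72 h was -0.25 and -0.81 in clones 1 and 3, and that of all genes tested 0.018 and 0.015. The 24 h count of shIRE1 clone 1 was 3 in a fit of all 48 libraries and from 4 to 6 when 1 library was left out. There ATF6 was lost without 0 h replicate 1 or 2, 24 h replicate 2 or 3, or 72 h replicate 2 or 3 (edgeR adjusted p = 0.0525 to 0.153), in the fit of all 48 libraries (edgeR adjusted p = 0.162) and with only the 6 libraries compared (edgeR adjusted p = 0.0657).

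Fewer were called in the shXBP1 clones. In shXBP1 clone 1, 2 members were higher and 1 lower at 24 h, against 13.9% of genes tested called higher and 12.8% lower. It had 3 higher and 2 lower at 48 h, against 16.6% and 15.5%, and 2 lower at 72 h, against 16.8% higher and 16.8% lower. The 48 h count was 2 without 0 h replicate 1 or 48 h replicate 2 or 3, and 3 without 0 h replicate 3 or 72 h replicate 1. It was also 3 in a fit of all 48 libraries or with no filter on low counts, and 2 with the replicate number as a block. With only the 6 libraries compared, 0 members were called at 24 h and 2 at 48 h. For shXBP1 clone 18, 1 member was lower at 24 h, against 0.291% of genes called higher and 1.3% lower. Its count was 3 lower at 48 h, against 2.28% and 3.5%, and 3 lower at 72 h, against 4.41% and 5.55%. Without replicate 3 at 72 h, the fit of this clone called 2, 4 and 3 members lower at 24, 48 and 72 h, while the share of all genes called lower was 3.33%, 7.16% and 4.48%. The 24 h count was 0 without 0 h replicate 1 or 3 or 24 h replicate 3. At 48 h it was 0 without 0 h replicate 1 or 3 or 48 h replicate 1 or 2, and 1 without 0 h replicate 2. CREB3 was the member called lower in both shXBP1 clones at 48 and 72 h, and CREB3, EIF2AK3 and CREB3L2 were the members lower in clone 18.

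**Figure D2:**
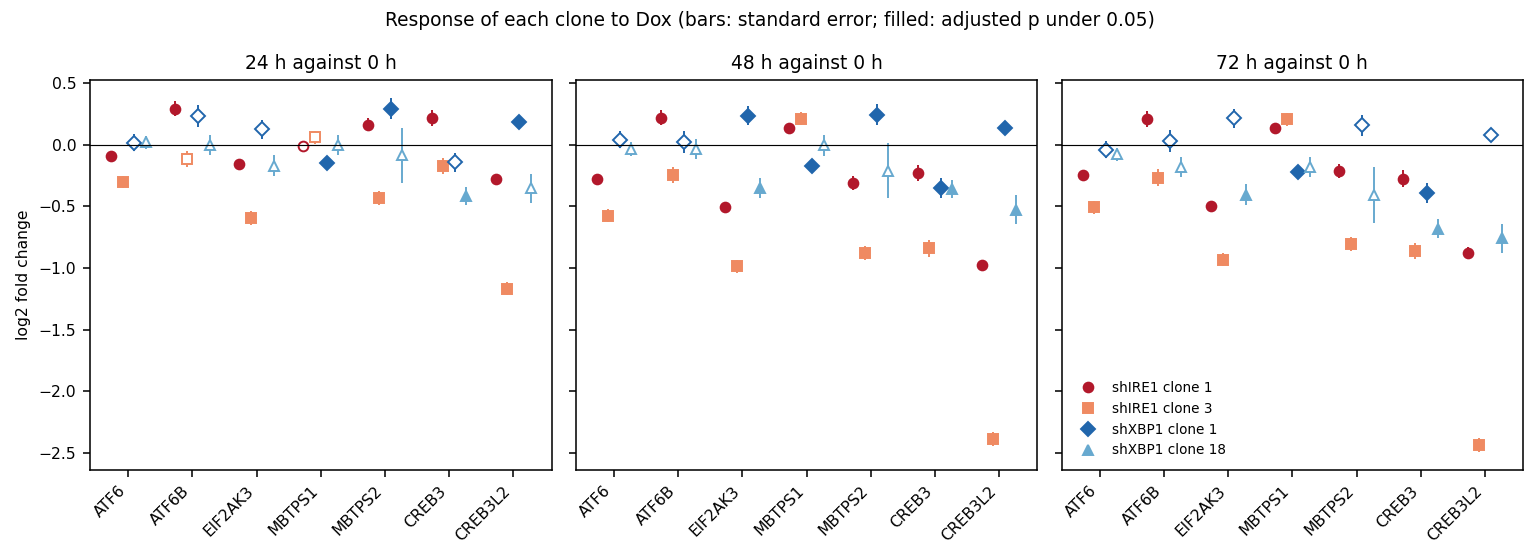
Log2 fold change of the 7 genes against 0 h (y axis) in the 4 clones (colours), with a panel each for 24, 48 and 72 h, from edgeR fits of the 12 libraries of a clone. Bars show the standard error and filled symbols an adjusted p under 0.05. CREB3L2 in shIRE1 clone 3 lies lowest, at -2.39 and -2.43 at 48 and 72 h.

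PERK, encoded by EIF2AK3, is the sensor kinase of the branch that acts on translation. Its mRNA in shIRE1 clone 1 stood at 165, 162 and 156 CPM at 0 h, 149, 143 and 146 at 24 h, 111, 112 and 118 at 48 h and 112, 116 and 115 at 72 h. The values for shIRE1 clone 3 were 195, 207 and 206 CPM at 0 h, 139, 133 and 137 at 24 h, 105, 106 and 103 at 48 h and 102, 106 and 119 at 72 h. In both clones every library on Dox lay below every 0 h library, and the level was lower at 48 h than at 24 h with no overlap. At 72 h the log2 fold change was -0.50 ± 0.040 in clone 1 (edgeR adjusted p = 2.45e-09) and -0.93 ± 0.054 in clone 3 (edgeR adjusted p = 1.09e-09), or 0.707 and 0.524 times the 0 h level. The 0 h levels of the clones were 161 and 203 CPM on average, and both ended between 102 and 119 CPM.

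EIF2AK3 took opposite courses in the shXBP1 clones. Clone 1 had 151, 174 and 172 CPM at 0 h, 204, 168 and 185 at 24 h, 188, 214 and 190.3 at 48 h and 187, 197 and 203 at 72 h, and the libraries at 48 and 72 h all lay above those at 0 h. The rise was called at 48 h (0.23 ± 0.076, edgeR adjusted p = 0.0357) and missed the threshold at 72 h (0.21 ± 0.076, edgeR adjusted p = 0.0506). The 48 h call was lost without 0 h replicate 1, or 48 h replicate 2 or 3 (edgeR adjusted p = 0.0571 to 0.123), with only the 6 libraries compared (edgeR adjusted p = 0.0509) and with the replicate block (edgeR adjusted p = 0.0633). At 72 h the rise was called without 0 h replicate 2 or 3, 24 h replicate 1 or 2, or 48 h replicate 1, 2 or 3 (edgeR adjusted p = 0.0190 to 0.0462). It was called there also by DESeq2 (adjusted p = 0.0451) and in the fit of all 48 libraries (edgeR adjusted p = 0.00756). Clone 18 had 313, 326 and 311 CPM at 0 h, 296, 275 and 275 at 24 h, 259.9, 257 and 232 at 48 h and 246, 264 and 205 at 72 h, a fall in which all Dox libraries lay below all 0 h libraries. It was called at 48 h (-0.35 ± 0.083, edgeR adjusted p = 0.0267) and 72 h (-0.41 ± 0.083, edgeR adjusted p = 0.0105), and was -0.30 ± 0.060 (edgeR adjusted p = 0.00616) at 72 h without replicate 3. The 48 h call was lost without 0 h replicate 1, 2 or 3, or 48 h replicate 1, 2 or 3 (edgeR adjusted p = 0.0683 to 0.130). At 72 h it was lost without 0 h replicate 1, 2 or 3 (edgeR adjusted p = 0.0546 to 0.0596), and with only the 6 libraries compared (edgeR adjusted p = 0.0682).

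Genes of the PERK branch were followed through a list of 12, which also holds EIF2AK1, EIF2AK2 and EIF2AK4, eIF2 kinases outside that branch. The rest are the eIF2 subunits, the phosphatase subunits PPP1R15A and PPP1R15B that reverse the phosphorylation, the co-chaperone DNAJC3, and ATF4, DDIT3 and TRIB3. At 72 h, 9 of the 12 fell in shIRE1 clone 1 and 11 of the 12 in clone 3, against 31.1% and 30.5% of all genes, with medians of -0.42 and -0.74. DNAJC3, which encodes an inhibitor of the eIF2 kinases, fell in all 4 clones, with log2 fold changes of -1.51 ± 0.049 and -1.14 ± 0.054 in shIRE1 clones 1 and 3 and -0.60 ± 0.093 and -0.69 ± 0.080 in shXBP1 clones 1 and 18 (edgeR adjusted p = 6.45e-15, 1.14e-10, 0.000550 and 0.000163). Its clone 18 change was -0.62 ± 0.076 (edgeR adjusted p = 0.000111) without replicate 3 of 72 h. PPP1R15A changed by -0.56 ± 0.058 and -1.68 ± 0.071 in the shIRE1 clones (edgeR adjusted p = 8.03e-08 and 3.51e-11). ATF4, the transcription factor made under eIF2 phosphorylation, changed by -0.52 ± 0.046 and -1.31 ± 0.057 there (edgeR adjusted p = 1.14e-08 and 4.58e-11). Under shXBP1 its changes were -0.19 ± 0.054 and -0.24 ± 0.057 for clones 1 and 18 (edgeR adjusted p = 0.0190 and 0.0215), the latter -0.22 ± 0.058 without that replicate (edgeR adjusted p = 0.0343). TRIB3, a pseudokinase induced downstream of ATF4, fell, with log2 fold changes of -0.18 ± 0.048 in shIRE1 clone 1 (edgeR adjusted p = 0.00314) and -1.50 ± 0.073 in clone 3 (edgeR adjusted p = 1.47e-10).

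In the shXBP1 clones 3 of the 12 genes rose and 3 fell in clone 1 at 72 h, against 16.8% and 16.8% of all genes. In clone 18 3 fell, against 5.55% of all genes, a count that was also 3 without its replicate 3. ATF4 and DNAJC3 were the genes of this list that fell in both. The difference between the responses, shIRE1 minus shXBP1, was called lower for 11, 12 and 10 of the 12 genes at 24, 48 and 72 h. Of all genes, 38.7%, 56.9% and 55.3% were called in either direction. The share called lower is not given here, so the counts and these shares are unlike measures.

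**Figure D3:**
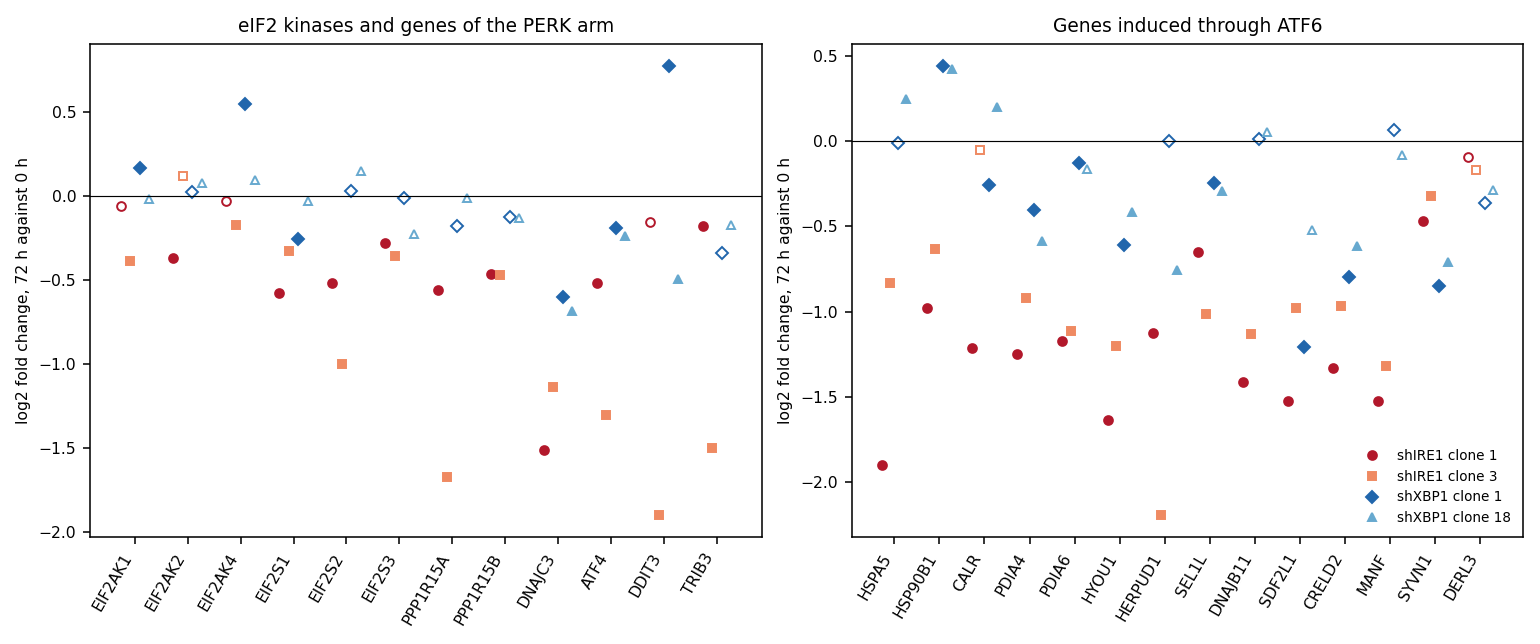
Log2 fold change of each gene at 72 h against 0 h (y axis) in the 4 clones, with filled symbols for an adjusted p under 0.05. The left panel holds the list of eIF2 kinases and PERK branch genes, the right panel the list of genes induced through ATF6. The red and orange shIRE1 symbols lie below 0 for most genes, while the blue shXBP1 symbols lie on both sides.

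ATF6 is the sensor that turns into a transcription factor when it is cut, and its mRNA moved less than that of EIF2AK3. Its level in shIRE1 clone 1 was 229.9, 244 and 228 CPM at 0 h, 231, 217 and 218 at 24 h, 189, 196 and 193 at 48 h and 196, 199.6 and 198 at 72 h. The libraries of shIRE1 clone 3 had 245, 258 and 246 CPM at 0 h, 211, 203 and 201 at 24 h, 171, 173 and 171 at 48 h and 172, 174 and 194 at 72 h. Libraries at 48 and 72 h lay below all 0 h libraries in both clones, and those at 24 h did so in clone 3. The log2 fold change at 48 h was -0.28 ± 0.037 in clone 1 (edgeR adjusted p = 1.89e-06) and -0.58 ± 0.050 in clone 3 (edgeR adjusted p = 9.74e-08), or 0.822 and 0.671 times the 0 h level. ATF6 in the shXBP1 clones overlapped its 0 h range at every time. The levels were 197, 216 and 218 CPM at 0 h and 204, 210.4 and 211 at 72 h in clone 1, and 241, 252 and 243 and 222, 243 and 229 in clone 18. The 72 h fold changes were -0.040 ± 0.067 (edgeR adjusted p = 0.676) and -0.081 ± 0.054 (edgeR adjusted p = 0.360), the latter -0.066 ± 0.054 (edgeR adjusted p = 0.507) without replicate 3 of clone 18.

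ATF6B, the paralog of ATF6, was the member called in opposite directions in the shIRE1 clones at 48 and 72 h, as CREB3 and MBTPS2 were at 24 h. Clone 1 went from 80.6, 81.9 and 88.5 CPM at 0 h to 98.8, 94.7 and 97.8 at 72 h, above all its 0 h libraries. Clone 3 went from 115, 116 and 121 to 103, 105 and 92.5 CPM, below all its 0 h libraries. The changes were 0.21 ± 0.062 (edgeR adjusted p = 0.00678) and -0.27 ± 0.065 (edgeR adjusted p = 0.00249), and they brought the clones, 83.7 and 117.5 CPM on average at 0 h, to overlapping ranges. ATF6B in shXBP1 clone 1 was at 90.7, 87.2 and 88.6 and 97.0, 88.6 and 90.7 CPM at 0 and 72 h and in clone 18 at 104, 98.0 and 102 and 95.8, 79.0 and 92.7 CPM, with fold changes of 0.026 ± 0.090 and -0.18 ± 0.081 that were not called (edgeR adjusted p = 0.847 and 0.170). The latter was -0.20 ± 0.086 (edgeR adjusted p = 0.172) without replicate 3 of 72 h.

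Among 14 genes induced through ATF6, mostly ER chaperones and folding or degradation factors that XBP1 can also induce, 13 fell at 72 h in shIRE1 clone 1 and 12 in clone 3, against 31.1% and 30.5% of all genes, with medians of -1.23 and -0.97. HSPA5, the chief ER chaperone, changed by -1.90 ± 0.034 in clone 1 and -0.83 ± 0.046 in clone 3 (edgeR adjusted p = 5.90e-18 and 5.32e-10). HERPUD1, a factor of ER-associated degradation, changed by -1.12 ± 0.038 and -2.19 ± 0.057 (edgeR adjusted p = 1.04e-14 and 3.51e-13). MANF, a secreted ER stress factor, fell, with log2 fold changes of -1.52 ± 0.047 and -1.32 ± 0.071 (edgeR adjusted p = 3.65e-15 and 4.21e-10), and the chaperone HYOU1 with -1.64 ± 0.047 and -1.20 ± 0.052 (edgeR adjusted p = 1.07e-15 and 4.45e-11).

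Under shXBP1 the same list split. At 72 h, 1 of the 14 genes rose and 8 fell in clone 1, and 3 rose and 6 fell in clone 18 (2 and 5 without its replicate 3), with medians of -0.25 and -0.29. Of all genes, 16.8% rose and 16.8% fell in clone 1 and 4.41% and 5.55% in clone 18. SYVN1, a ubiquitin ligase of ER-associated degradation, fell, with log2 fold changes of -0.85 ± 0.10 and -0.71 ± 0.094 in clones 1 and 18 (edgeR adjusted p = 0.000118 and 0.000440), and the folding factor CRELD2 with -0.80 ± 0.17 and -0.61 ± 0.086 (edgeR adjusted p = 0.00416 and 0.000673). HYOU1 fell, with log2 fold changes of -0.61 ± 0.051 and -0.42 ± 0.059 (edgeR adjusted p = 8.13e-06 and 0.000785) and the disulfide isomerase PDIA4 with -0.40 ± 0.050 and -0.59 ± 0.053 (edgeR adjusted p = 0.000118 and 1.60e-05). Without replicate 3 of 72 h the clone 18 changes were -0.60 ± 0.075, -0.59 ± 0.093, -0.48 ± 0.047 and -0.62 ± 0.051 (edgeR adjusted p = 0.000137, 0.00102, 1.15e-05 and 2.45e-06). HSP90B1 was the gene of this list that rose in both clones. Its log2 fold changes were 0.44 and 0.42 in clones 1 and 18 (edgeR adjusted p = 0.000819 and 0.0216), the latter with replicate 3 of 72 h. HSPA5 was -0.013 ± 0.039 in clone 1 (edgeR adjusted p = 0.826) and rose by 0.25 ± 0.068 in clone 18 (edgeR adjusted p = 0.0360), a call lost without its replicate 3 (0.16 ± 0.047, edgeR adjusted p = 0.0571). The difference between shIRE1 and shXBP1 in its response was -1.48 ± 0.045 at 72 h (edgeR adjusted p = 1.11e-26). SYVN1 differed the other way, at 0.38 ± 0.091 (edgeR adjusted p = 0.000458).

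The list of ATF6 partners holds the disulfide isomerases PDIA5 and TXNDC12, the ER membrane protein WFS1, the NF-Y subunits that bind beside ATF6 on DNA, and YY1. WFS1, which is known to restrain ATF6, rose in both shIRE1 clones (0.60 ± 0.090 and 0.90 ± 0.14 at 72 h, edgeR adjusted p = 9.16e-06 and 6.76e-05) and fell in both shXBP1 clones (-1.17 ± 0.26 and -1.03 ± 0.14, edgeR adjusted p = 0.00519 and 0.000489). The difference between its responses was 1.85 ± 0.18 (edgeR adjusted p = 3.28e-11). PDIA5, which reduces ATF6 before its transport, fell in all 4 clones, with log2 fold changes of -0.63 ± 0.049, -1.12 ± 0.053, -0.44 ± 0.048 and -0.76 ± 0.075 in shIRE1 clones 1 and 3 and shXBP1 clones 1 and 18 (edgeR adjusted p = 1.48e-09, 1.02e-10, 4.80e-05 and 3.53e-05). TXNDC12, a thioredoxin-like ER protein, also fell in all 4, with -0.66, -0.62, -0.65 and -0.45 (edgeR adjusted p = 5.17e-10, 8.91e-07, 4.70e-05 and 0.000350), but 48.5% of its exon bases are shared with another gene on the same strand, so its counts are uncertain. Without replicate 3 of 72 h the shXBP1 clone 18 changes of WFS1, PDIA5 and TXNDC12 were -0.93 ± 0.14, -0.67 ± 0.055 and -0.42 ± 0.058 (edgeR adjusted p = 0.000716, 2.23e-06 and 0.000375). NFYB fell in the shIRE1 clones, with -0.33 ± 0.061 and -0.74 ± 0.073 (edgeR adjusted p = 0.000112 and 4.37e-07). In all, 4 of the 7 partners fell and 1 rose in shIRE1 clone 1 at 72 h, with the same counts in shIRE1 clone 3 and in shXBP1 clone 1, and 3 fell and 1 rose in shXBP1 clone 18. The shares of all genes that fell and rose were 31.1% and 32.5% in shIRE1 clone 1, 30.5% and 29.7% in clone 3, 16.8% and 16.8% in shXBP1 clone 1 and 5.55% and 4.41% in clone 18. NFYB was the gene that rose in shXBP1 clone 18 (0.26 ± 0.075, edgeR adjusted p = 0.0451), a call that was lost without replicate 3 of 72 h (0.24 ± 0.080, edgeR adjusted p = 0.0840).

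In the shIRE1 clones at 48 and 72 h the proteases that release ATF6 moved in opposite directions. MBTPS1, which makes the first cut, was at 242, 250.3 and 247 CPM at 0 h, 241, 252 and 249 at 24 h, 269, 273 and 271 at 48 h and 271, 272 and 272 at 72 h in shIRE1 clone 1. The values in shIRE1 clone 3 were 229.9, 260.5 and 257 CPM at 0 h, 249.6, 274 and 267 at 24 h, 295, 295 and 295 at 48 h and 298, 285 and 301 at 72 h. The 24 h libraries overlapped those at 0 h, and those at 48 and 72 h lay above them, in both clones. The rise was small, 0.13 ± 0.033 in clone 1 (edgeR adjusted p = 0.00172) and 0.21 ± 0.054 in clone 3 (edgeR adjusted p = 0.00390) at 72 h, or 1.10 and 1.15 times the 0 h level. MBTPS1 fell in shXBP1 clone 1, from 247, 248 and 250.2 CPM at 0 h to 213, 218 and 219.9 at 72 h (-0.22 ± 0.039, edgeR adjusted p = 0.00122), with all Dox libraries below all 0 h libraries. Clone 18 had 299, 309 and 292 CPM at 0 h, 298, 303 and 301 at 24 h, 306, 303 and 293 at 48 h and 291, 279.9 and 221 at 72 h. Its 72 h change was -0.18 ± 0.083 (edgeR adjusted p = 0.173) with the library that stood apart and -0.065 ± 0.045 (edgeR adjusted p = 0.426) without it. It was called without 72 h replicate 1 (edgeR adjusted p = 0.0492).

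MBTPS2, which makes the second cut within the membrane, first rose and then fell in shIRE1 clone 1, with 29.4, 28.2 and 29.1 CPM at 0 h, 33.3, 33.8 and 31.0 at 24 h, 22.9, 23.5 and 23.8 at 48 h and 24.8, 24.5 and 25.9 at 72 h. In shIRE1 clone 3 it fell from the start, with 39.6, 40.1 and 40.2 CPM at 0 h, 30.7, 29.7 and 30.1 at 24 h, 22.2, 22.0 and 22.7 at 48 h and 22.5, 23.0 and 24.7 at 72 h. Each time lay apart from 0 h in both clones, above it only at 24 h in clone 1 (0.16 ± 0.056, edgeR adjusted p = 0.0182), a call lost without 0 h replicate 2, or 24 h replicate 1 or 2 (edgeR adjusted p = 0.0511 to 0.0903), with DESeq2 (adjusted p = 0.0639) and with only the 6 libraries compared (edgeR adjusted p = 0.0567). At 72 h the changes were -0.21 ± 0.058 (edgeR adjusted p = 0.00348) and -0.81 ± 0.057 (edgeR adjusted p = 9.90e-09), and the levels of the clones, 28.9 and 40.0 CPM at 0 h, overlapped. In the fit of all 48 libraries, whose spread includes the library that stood apart, the changes of clone 1 at 24, 48 and 72 h were not called (edgeR adjusted p = 0.362, 0.0726 and 0.236). MBTPS2 rose in shXBP1 clone 1 at 24 h, from 23.9, 28.5 and 27.4 to 37.3, 30.9 and 32.1 CPM (0.29 ± 0.086, edgeR adjusted p = 0.0268). That call was lost without 0 h replicate 1, or 24 h replicate 1 (edgeR adjusted p = 0.0617 to 0.0653), with only the 6 libraries compared (edgeR adjusted p = 0.101), with the replicate block (edgeR adjusted p = 0.0538) and in the fit of all 48 libraries (edgeR adjusted p = 0.0971). At 48 h it stood at 31.2, 33.6 and 31.0 CPM, a rise of 0.24 ± 0.087 (edgeR adjusted p = 0.0495) that was lost in 9 of 12 fits (edgeR adjusted p = 0.0528 to 0.143) that each left out 1 library, and with the 6 libraries, the block or all 48 libraries (edgeR adjusted p = 0.0673, 0.0849 and 0.172). Clone 18 showed the effect of the library that stood apart most plainly, with 72.0, 77.8 and 75.0 CPM at 0 h, 78.4, 68.3 and 65.9 at 24 h, 66.0, 66.0 and 63.3 at 48 h and 69.7, 70.2 and 29.6 at 72 h. The last value is replicate 3, which lies far below its fellow replicates and inside the range of shXBP1 clone 1 at 72 h. The 72 h change was -0.41 ± 0.23 (edgeR adjusted p = 0.267) with it and -0.091 ± 0.069 (edgeR adjusted p = 0.472) without it. The 48 h change of -0.21 ± 0.062 was called only without it (edgeR adjusted p = 0.0377, against 0.654 with it).

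Other substrates and helpers of these proteases were the sterol factors SREBF1 and SREBF2, their escort SCAP, the anchors INSIG1 and INSIG2, GNPTAB, which MBTPS1 cleaves, and C12orf49, a cofactor of MBTPS1. At 72 h 3 of the 7 fell in shIRE1 clone 1 and 5 in clone 3, against 31.1% and 30.5% of all genes. INSIG2 fell, with log2 fold changes of -1.16 ± 0.086 and -1.43 ± 0.096 in the shIRE1 clones (edgeR adjusted p = 7.27e-10 and 5.26e-09), GNPTAB with -0.66 ± 0.048 and -0.55 ± 0.061 (edgeR adjusted p = 5.10e-10 and 1.63e-06) and C12orf49 with -0.49 ± 0.045 and -0.27 ± 0.049 (edgeR adjusted p = 1.84e-08 and 0.000230). These were the genes of the list that both clones changed in the same direction. INSIG2 rose in shXBP1 clone 1 (0.69 ± 0.11, edgeR adjusted p = 0.000633), where 2 of the 7 rose, against 16.8% of all genes. In clone 18 2 fell, against 5.55% of all genes, and without its replicate 3 of 72 h 1 rose and 2 fell.

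CREB3L2 had the largest fold range of the members, 9.01-fold from the lowest to the highest of the 48 libraries. In shIRE1 clone 1 its level was 147, 146 and 146 CPM at 0 h, 127, 115 and 123 at 24 h, 77.9, 73.0 and 71.7 at 48 h and 80.2, 79.5 and 80.2 at 72 h. The fall was deeper in shIRE1 clone 3, with 285, 309 and 299 CPM at 0 h, 124, 142 and 138 at 24 h, 59.3, 58.9 and 57.2 at 48 h and 55.6, 55.0 and 58.9 at 72 h. Each library at 24 h lay below every 0 h library, and each at 48 h below every 24 h library, in both clones. At 72 h the log2 fold change was -0.88 ± 0.046 in clone 1 (edgeR adjusted p = 5.07e-12) and -2.43 ± 0.057 in clone 3 (edgeR adjusted p = 1.26e-13), or 0.545 and 0.185 times the 0 h level. ERN1, the silenced gene, changed by -0.58 and -1.82 in the same fits.

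The shXBP1 clones started CREB3L2 at 194 and 487 CPM on average. Clone 1 had 188, 202 and 191 CPM at 0 h, 229, 225 and 223 at 24 h, 209, 228 and 210.5 at 48 h and 203, 214 and 209 at 72 h, a rise called at 24 h (0.18 ± 0.046, edgeR adjusted p = 0.0124) and 48 h (0.13 ± 0.046, edgeR adjusted p = 0.0413). The 48 h call was lost without 0 h replicate 1 or 3, 48 h replicate 2 or 3, or 72 h replicate 1 (edgeR adjusted p = 0.0504 to 0.147), with the replicate block (edgeR adjusted p = 0.0558) and in the fit of all 48 libraries (edgeR adjusted p = 0.127). With only the 6 libraries compared neither was called (edgeR adjusted p = 0.0626 and 0.0963). Clone 18 had 484, 481 and 495 CPM at 0 h, 392, 372 and 385 at 24 h, 345, 342 and 330.4 at 48 h and 321, 324 and 215 at 72 h, and all its libraries on Dox lay below those at 0 h. Its change was -0.35 ± 0.12 at 24 h (edgeR adjusted p = 0.174) and -0.76 ± 0.12 at 72 h (edgeR adjusted p = 0.00155). Without replicate 3 of 72 h these became -0.35 ± 0.040 (edgeR adjusted p = 9.29e-05) and -0.59 ± 0.046 (edgeR adjusted p = 1.44e-06), so that the 24 h call was gained. At 48 h the change of -0.53 ± 0.12 (edgeR adjusted p = 0.0195) was not called without 0 h replicate 1, 2 or 3, or 48 h replicate 1 or 2 (edgeR adjusted p = 0.0725 to 0.0913).

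CREB3, the founding member of that family, was the member lower in all 4 clones at 48 and 72 h. From 0 to 72 h it went from 26.1, 28.1 and 28.6 to 24.2, 22.0 and 22.5 CPM in shIRE1 clone 1 and from 35.4, 34.3 and 35.8 to 21.3, 19.9 and 18.5 CPM in clone 3. It went from 28.7, 29.1 and 28.0 to 24.0, 21.5 and 21.1 CPM in shXBP1 clone 1 and from 42.2, 39.0 and 39.5 to 26.9, 24.4 and 23.9 CPM in clone 18. In each clone the 72 h libraries lay below the 0 h libraries. The log2 fold changes at 72 h, in that order, were -0.28 ± 0.066, -0.86 ± 0.067, -0.39 ± 0.079 and -0.68 ± 0.074 (edgeR adjusted p = 0.00129, 2.81e-08, 0.00298 and 7.96e-05). That of shXBP1 clone 18 was -0.64 ± 0.077 (edgeR adjusted p = 0.000102) without replicate 3 of 72 h. At 24 h CREB3 was instead higher in shIRE1 clone 1 (0.22 ± 0.064, edgeR adjusted p = 0.00670), and in shIRE1 clone 3 the fall of -0.17 ± 0.065 (edgeR adjusted p = 0.0436) was not called without replicate 1 of 24 h (-0.16 ± 0.072, edgeR adjusted p = 0.0765), and was lost in 9 of 12 fits (edgeR adjusted p = 0.0554 to 0.0933) that left out 1 library. The rise in shIRE1 clone 1 was lost without 24 h replicate 3 (edgeR adjusted p = 0.0501). In shXBP1 clone 18 the falls of -0.42 ± 0.074 at 24 h and -0.36 ± 0.074 at 48 h (edgeR adjusted p = 0.0104 and 0.0133) were called. The former was lost without 0 h replicate 1 or 3, or 24 h replicate 3 (edgeR adjusted p = 0.0536 to 0.0767). The latter was lost without 0 h replicate 1 or 3, or 48 h replicate 1 or 2 (edgeR adjusted p = 0.0544 to 0.0829).

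Of the CREB3 family, its partners and its targets, 9 genes were listed, of which CREB3L1 was not tested in any clone and CREB3L3 only in shIRE1 clone 3, where it rose but did not exceed 0.823 CPM. SEC24D, a coat protein of vesicles that leave the ER, fell in all 4 clones at 72 h, with log2 fold changes of -1.18 ± 0.051 and -2.08 ± 0.050 in the shIRE1 clones and of -0.92 ± 0.060 and -1.26 ± 0.14 under shXBP1 (edgeR adjusted p = 3.15e-13, 1.90e-13, 1.38e-06 and 7.65e-05). ARF4, a small GTPase and target of CREB3, fell, with log2 fold changes of -0.24 ± 0.052, -0.52 ± 0.081, -0.27 ± 0.073 and -0.70 ± 0.076 (edgeR adjusted p = 0.000479, 5.40e-05, 0.0145 and 7.65e-05), although 18.5% of its exon bases are shared with an opposite-strand transcript. Without replicate 3 of 72 h the shXBP1 clone 18 changes of SEC24D and ARF4 were -1.06 ± 0.050 and -0.63 ± 0.069 (edgeR adjusted p = 8.52e-09 and 4.15e-05). CREB3L4 rose in both shIRE1 clones (1.08 ± 0.064 and 0.34 ± 0.081, edgeR adjusted p = 3.08e-11 and 0.00218). SEC23A, introduced above as a gene that CREB3L2 induces, was not called in the same direction in both shIRE1 clones at 72 h. Of the 7 to 8 genes tested at 72 h, 3 rose and 3 fell in shIRE1 clone 1, 3 and 5 in clone 3, 3 and 3 in shXBP1 clone 1, and 3 fell in clone 18 with or without its replicate 3. Of all genes, 32.5% rose and 31.1% fell in shIRE1 clone 1, 29.7% and 30.5% in clone 3 and 16.8% and 16.8% in shXBP1 clone 1, and 5.55% fell in clone 18.

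The course over time also differed. From 24 to 48 h, 6 of the 7 members were called in shIRE1 clone 1, against 30.3% of genes in either direction, and 6 in shIRE1 clone 3, against 34.6%, or 5 without its replicate 1 of 24 h. CREB3L2 fell, with log2 fold changes of -0.70 ± 0.046 and -1.22 ± 0.055 in that step (edgeR adjusted p = 1.84e-09 and 3.52e-10) and EIF2AK3 with -0.35 ± 0.040 and -0.39 ± 0.054 (edgeR adjusted p = 2.06e-06 and 4.67e-05). MBTPS1 rose by 0.15 ± 0.053 in clone 3 (edgeR adjusted p = 0.0419), a call lost without 24 h replicate 1 or 3, 48 h replicate 1, 2 or 3, or 72 h replicate 1 or 2 (edgeR adjusted p = 0.0507 to 0.128). ATF6B was not called in either clone. From 48 to 72 h edgeR called 0 members in any clone, against 0.869%, 0.936%, 0.012% and 0% of genes in shIRE1 clones 1 and 3 and shXBP1 clones 1 and 18. At an unadjusted p under 0.05 the counts were 1, 0, 0 and 1, and DESeq2 called 0. The step from 24 to 48 h in shXBP1 clones 1 and 18 gave 0 members with edgeR, against 0% and 0% of genes, with 2 and 0 members at an unadjusted p under 0.05 and 0 with DESeq2.

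The difference between the responses, the mean log2 fold change of the shIRE1 clones minus that of the shXBP1 clones, was tested in 1 model of all 48 libraries. It was called for 4 members at 24 h, against 38.7% of genes tested, for 6 at 48 h, against 56.9%, and for 5 at 72 h, against 55.3%. CREB3L2 differed most, by -0.64 ± 0.078, -1.49 ± 0.079 and -1.31 ± 0.079 at 24, 48 and 72 h (edgeR adjusted p = 7.99e-09, 2.73e-19 and 1.42e-17). EIF2AK3 differed by -0.36 ± 0.070, -0.69 ± 0.070 and -0.62 ± 0.070 (edgeR adjusted p = 6.46e-05, 4.82e-11 and 8.75e-10). For ATF6 the differences were -0.22 ± 0.053, -0.44 ± 0.053 and -0.32 ± 0.053 (edgeR adjusted p = 0.000797, 4.06e-09 and 2.52e-06). In the means over the clones these genes were lower under shIRE1 than under shXBP1 at each time. MBTPS1 was higher, by 0.26 ± 0.055 at 48 h and 0.37 ± 0.055 at 72 h (edgeR adjusted p = 0.000118 and 3.03e-07). The SE and p of every such difference measure the spread between libraries of a group and not that between clones of a hairpin. Single pairs of clones could differ in sign, as EIF2AK3 and CREB3L2 did at 24 h between shIRE1 clone 1 and shXBP1 clone 18.

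For MBTPS2 the difference was -0.24 ± 0.15 at 24 h (edgeR adjusted p = 0.189) and -0.39 ± 0.15 at 72 h (edgeR adjusted p = 0.0239). Without replicate 3 of shXBP1 clone 18 at 72 h it was -0.25 ± 0.062 (edgeR adjusted p = 0.00110) and -0.55 ± 0.064 (edgeR adjusted p = 1.82e-09), with a smaller SE. The 72 h call was lost without shXBP1 clone 18 72 h replicate 1 or 2 (edgeR adjusted p = 0.0674 to 0.0706). CREB3 was higher under shIRE1 at 24 h (0.30 ± 0.064, edgeR adjusted p = 0.000243), lower at 48 h (-0.19 ± 0.064, edgeR adjusted p = 0.0133) and within the error at 72 h (-0.032 ± 0.065, edgeR adjusted p = 0.694). ATF6B was not called at any time, at -0.033 ± 0.077, -0.012 ± 0.077 and 0.047 ± 0.077 (edgeR adjusted p = 0.766, 0.909 and 0.630). The values depended on the clones chosen. Between shIRE1 clone 1 and shXBP1 clone 18 alone, 2, 2 and 3 members were called at 24, 48 and 72 h, and the 24 h differences of EIF2AK3 (0.017) and CREB3L2 (0.077) were near 0.

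**Figure D4:**
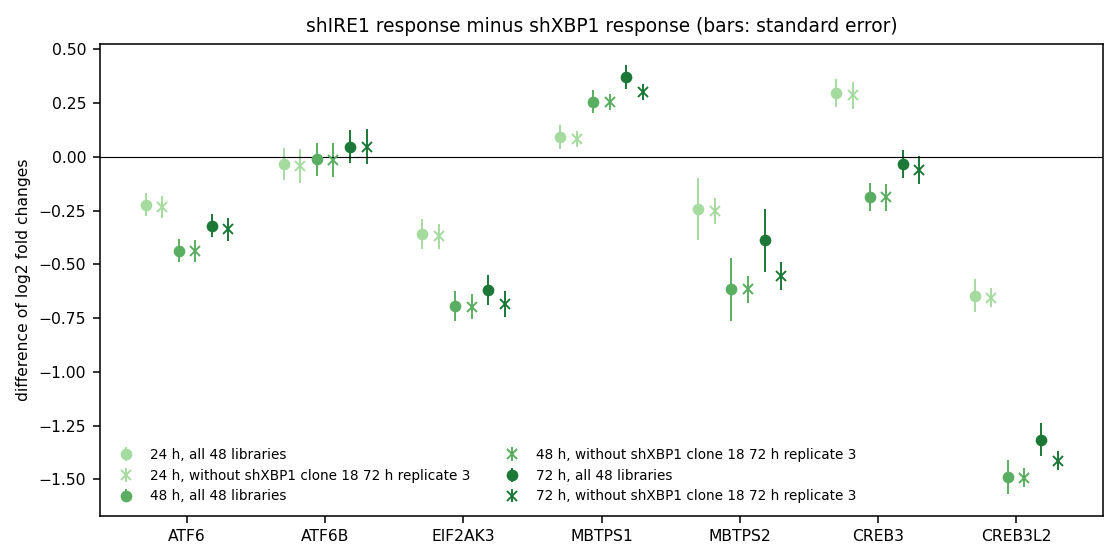
Mean response of the shIRE1 clones minus that of the shXBP1 clones for the 7 genes (y axis, difference of log2 fold changes), at 24, 48 and 72 h in light to dark green, with standard errors. Circles use all 48 libraries and crosses leave out the library of shXBP1 clone 18 at 72 h that stood apart. CREB3L2 lies lowest at each time, and leaving out that library narrows the bars of MBTPS2.

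Clones with the same hairpins differed before Dox. At 0 h, 5 of the 7 members differed between shIRE1 clones 1 and 3, against 40.6% of genes tested, and all 7 between shXBP1 clones 1 and 18, against 51.3%. CREB3L2 differed by -1.05 ± 0.079 between shIRE1 clones 1 and 3 (edgeR adjusted p = 5.60e-14) and by -1.34 ± 0.079 between shXBP1 clones 1 and 18, the first minus the second (edgeR adjusted p = 5.37e-17). MBTPS2 differed by -0.49 ± 0.15 and -1.50 ± 0.15 (edgeR adjusted p = 0.00684 and 4.60e-11), and EIF2AK3 by -0.35 ± 0.070 and -0.94 ± 0.071 (edgeR adjusted p = 8.11e-05 and 4.21e-14). The shXBP1 difference of ATF6B at 0 h, -0.20 ± 0.077 (edgeR adjusted p = 0.0311), was not called in 46 of 48 fits (edgeR adjusted p = 0.0512 to 0.178) that each left out 1 library, and was -0.17 ± 0.078 (edgeR adjusted p = 0.0729) without the library that stood apart.

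By mean level at 0 h, the lowest first, the clones ran shIRE1 clone 1, shXBP1 clone 1, shIRE1 clone 3 and shXBP1 clone 18 for EIF2AK3, MBTPS1, CREB3 and CREB3L2. Only CREB3L2 had no overlapping neighbours in that order. For EIF2AK3 and CREB3 the lowest pair overlapped, for MBTPS1 the lowest 3 did, and for MBTPS2 the order was the same but for the overlapping lowest pair, which was reversed. The range over the clones at 0 h was 3.33-fold for CREB3L2, 2.82-fold for MBTPS2 and 1.97-fold for EIF2AK3, but 1.46-fold for CREB3, 1.40-fold for ATF6B, 1.22-fold for MBTPS1 and 1.19-fold for ATF6. ERN1 itself ranged 2.83-fold, with means of 153, 188, 411 and 432 CPM in shIRE1 clone 1, shXBP1 clone 1, shXBP1 clone 18 and shIRE1 clone 3.

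Responses differed between clones of one hairpin as well. Between shIRE1 clones 1 and 3, 6 members were called at 24 h, against 28.2% of genes, 6 at 48 h, against 30.8%, and 6 at 72 h, against 27.5%. MBTPS1 was the member not called, with -0.084 ± 0.078 at 72 h (edgeR adjusted p = 0.459). The shXBP1 clones differed in 3 members at 24 h, against 17.1%, 2 at 48 h, against 24.1%, and 4 at 72 h, against 24.6%. CREB3L2 and EIF2AK3 were called at all 3 times in both pairs, although the call of EIF2AK3 in the shXBP1 pair at 24 h was lost in 5 of 48 fits (edgeR adjusted p = 0.0655 to 0.109) with 1 library left out. Their 72 h differences, CREB3L2 first, were 1.55 ± 0.11 and 0.42 ± 0.10 for the shIRE1 clones (edgeR adjusted p = 5.77e-14 and 0.00123) and 0.87 ± 0.11 and 0.65 ± 0.099 for the shXBP1 clones (edgeR adjusted p = 1.38e-07 and 5.11e-06). These comparisons share the 0 h libraries with the difference at 0 h, which had the opposite sign. Without replicate 3 of shXBP1 clone 18 at 72 h, MBTPS2 and CREB3 were lost from the shXBP1 count at 72 h (0.24 ± 0.093 and 0.24 ± 0.095, edgeR adjusted p = 0.0605 and 0.0659) and MBTPS1 was gained (-0.16 ± 0.054, edgeR adjusted p = 0.0280). The counts of the shXBP1 pair were 5, 4 and 3 at 24, 48 and 72 h without that library. The 24 h count was 1 without shXBP1 clone 18, 24 h, replicate 3, and the 72 h count was 2 without shXBP1 clone 1, 72 h, replicate 1 or shXBP1 clone 18, 0 h, replicate 1. In the shIRE1 pair the 24 h call of ATF6 (0.21 ± 0.075, edgeR adjusted p = 0.0329) was lost in 14 of 48 fits (edgeR adjusted p = 0.0547 to 0.120). The calls of MBTPS2 (0.59 ± 0.21, 0.56 ± 0.21 and 0.59 ± 0.21 at 24, 48 and 72 h, edgeR adjusted p = 0.0294, 0.0385 and 0.0335) were lost in 9, 13 and 10 of 48 such fits at these times (edgeR adjusted p up to 0.0705, 0.0813 and 0.0830). All 48 libraries share an estimate of the spread, so the SE of MBTPS2 here includes the shXBP1 library that stood apart.

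Levels between genes were compared per kilobase of exon union. At 0 h in shIRE1 clone 1, MBTPS1 (24.0 ± 0.40 CPM per kb, SD, n = 3) and ATF6B (23.1 ± 1.2) overlapped at the top, CREB3 (16.9 ± 0.79), CREB3L2 (16.6 ± 0.063) and ATF6 (16.4 ± 0.62) overlapped in the middle, and EIF2AK3 (7.78 ± 0.23) and MBTPS2 (3.23 ± 0.068) lay apart below. CREB3L2 was highest in shXBP1 clone 18 at 0 h, at 55.3 ± 0.85 CPM per kb (SD, n = 3), and at 33.8 ± 1.4 in shIRE1 clone 3, where it overlapped ATF6B (32.4 ± 0.96). With the length of the longest transcript in place of the union, 3 to 6 members took another rank in each group, and the exon union of EIF2AK3 (20691 bases) is far longer than its longest transcript (4724 bases). MBTPS2 was last in all 16 groups with either length.

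After the mean of each clone was subtracted, log2 CPM of EIF2AK3 over the 48 libraries correlated with that of CREB3L2 (Pearson r = 0.939) and ATF6 (r = 0.922), and that of MBTPS1 ran against it (r = -0.440, or -0.742 without replicate 3 of shXBP1 clone 18 at 72 h). ATF6 and ATF6B, the paralogs, had r = 0.0744. The libraries share clones, times and depth scaling, so these values describe the set and carry no test. Among 12009 genes, those most like CREB3L2 were TNFRSF17 (r = 0.984), HERPUD1 (r = 0.982) and SCD (r = 0.968). The nearest to EIF2AK3 were STT3B (r = 0.968), JCHAIN (r = 0.965) and UBE2J1 (r = 0.963), and the nearest to ATF6 were SEC62 (r = 0.962), UBE2J1 (r = 0.957) and STT3B (r = 0.953). For MBTPS2 they were VPS35 (r = 0.908), GFPT1 (r = 0.895) and GM2A (r = 0.895), and for CREB3 PREB (r = 0.909), FKBP11 (r = 0.909) and B9D1 (r = 0.908). The closest to MBTPS1 were ITM2C (r = 0.906), CHST4 (r = 0.880) and KCNN3 (r = 0.854), and to ATF6B C16orf58 (r = 0.844), TMEM129 (r = 0.839) and SPAG7 (r = 0.822). These nearest genes were found with replicate 3 of shXBP1 clone 18 at 72 h included and were not sought without it. Leaving it out moved the correlation of MBTPS1 with MBTPS2 from -0.108 to -0.762, so the nearest genes of these members may depend on it.

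Markers of cell identity moved in the same libraries. TNFRSF17, the BCMA receptor of plasma cells, and the plasma cell factor IRF4 fell, with log2 fold changes of -1.21 ± 0.044 and -1.11 ± 0.041 at 72 h in shIRE1 clone 1 and -2.54 ± 0.075 and -2.10 ± 0.056 in clone 3 (edgeR adjusted p = 3.65e-14, 4.31e-14, 9.48e-13 and 3.99e-13). PRDM1, the plasma cell master regulator, fell, with log2 fold changes of -1.08 ± 0.037 and -1.03 ± 0.046 (edgeR adjusted p = 1.27e-14 and 5.52e-11), and the surface marker SDC1 with -0.58 ± 0.072 and -0.79 ± 0.10 (edgeR adjusted p = 9.79e-07 and 1.05e-05). In all, 4 of 6 plasma cell markers fell and 1 rose in shIRE1 clone 1, and 6 fell in clone 3. CD38 and SLAMF7 were the markers not called alike in both shIRE1 clones. In shXBP1 clone 1, 4 rose and 1 fell, and in clone 18 2 fell (1 rose and 2 fell without its replicate 3). Of all genes, 31.1% fell and 32.5% rose in shIRE1 clone 1, and 30.5% and 29.7% in clone 3. The shares were 16.8% and 16.8% in shXBP1 clone 1 and 5.55% and 4.41% in clone 18. SDC1, at 5126 to 15195 CPM per library, made up most of the summed level of the 6 markers, so the sum mainly follows that gene. This sum was 10479 to 12644 CPM at 0 h and 7020 to 8827 CPM on Dox in shIRE1 clone 1. In clone 3 it was 12097 to 14082 and 6010 to 10358 CPM. In shXBP1 clone 1 it was 13244 to 17344 and 8820 to 12294 CPM, and in clone 18 10427 to 10904 and 8363 to 11147 CPM.

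Of 9 markers of other blood and stromal cells, 3 or 4 were abundant enough to test. MS4A1 (CD20, a B cell marker) rose by 3.05 ± 0.29 and 3.44 ± 0.36 in the shIRE1 clones at 72 h and the T cell marker CD3E by 1.44 ± 0.087 and 0.82 ± 0.077 (edgeR adjusted p = 2.70e-08, 8.97e-07, 4.42e-11 and 2.42e-07), but MS4A1 did not exceed 2.31 CPM and CD3E 17.5 CPM in any library. CD3D had a count of 0 in 42 of the 48 libraries and PAX5 in 43. The sum of the 9 markers was 6.82 to 7.36 CPM at 0 h and 16.3 to 20.1 CPM on Dox in shIRE1 clone 1, 8.33 to 8.75 and 15.4 to 17.7 CPM in clone 3, 6.28 to 7.12 and 7.09 to 9.67 CPM in shXBP1 clone 1, and 11.6 to 13.6 and 7.97 to 16.3 CPM in clone 18. The part of these marker changes in the changes of the members was not tested.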

How the data were processed

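RNA of 48 AMO1 libraries (TruSeq stranded mRNA, single-end reads) was sequenced. The submitters' processing notes name GSNAP, R 4.1.3, edgeR 3.32.1, limma 3.46.0 and GRCh37 (hg19). The counting annotation and its use of strand are not given in the sources used here. The authors deposited raw counts per gene for 58302 genes, and a table of 18401 genes on the log2 scale, which equals edgeR log2 CPM of the deposited counts to within 5e-14 and served as an alternative input to limma 3.58.1. Here counts were fitted in edgeR 4.0.16 (R 4.3.3) with TMM, a minimum count of 10 (filterByExpr by group) and quasi-likelihood tests, with Benjamini-Hochberg adjustment over all genes tested. Changes within a clone used its 12 libraries, and comparisons between clones all 48. Groups came from the labels, and no pair of replicates agreed within sampling noise (mean chi-square per gene 1.66 to 63.2). Alternatives were DESeq2 1.42.0, its size factors, no filter, other sets of libraries, a replicate block and leaving out each library.

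The members and gene lists were chosen with earlier results of these data known. Named from each list were up to 4 genes with the largest mean change at 72 h among those called alike in both clones of a hairpin pair, and for each member the 3 genes of highest correlation. Totals of 19177855 to 40767202 counts make 1 count at most 0.0521 CPM.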

Additional observations from a re-analysis of the deposited data

Results flagged for a closer look

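Each of the values here is a difference between responses to Dox that passed the test of the difference itself (edgeR quasi-likelihood test over all 48 libraries, adjusted p under 0.05), given as a difference of log2 fold changes. Between shIRE1 and shXBP1 there were 15 such differences, in 4, 6 and 5 members at 24, 48 and 72 h. Of all genes tested, 38.7%, 56.9% and 55.3% were called at these times. The p of these differences leaves out the spread between clones of a hairpin. The differences were -0.64, -1.49 and -1.31 for CREB3L2 and -0.36, -0.69 and -0.62 for EIF2AK3 at 24, 48 and 72 h. For ATF6 they were -0.22, -0.44 and -0.32. MBTPS1 differed by 0.26 and 0.37 and MBTPS2 by -0.62 and -0.39 at 48 and 72 h. CREB3 differed by 0.30 at 24 h and -0.19 at 48 h. CREB3 was the member whose difference changed sign between times.

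Between shIRE1 clones 1 and 3 there were 18 differences, in 6 members at each time, all positive. Of all genes tested, 28.2%, 30.8% and 27.5% were called at 24, 48 and 72 h. These members fell less, or rose more, in clone 1. Each of the 6 also stood lower in clone 1 at 0 h, and the same 0 h libraries enter both comparisons. At 24, 48 and 72 h the differences were 0.88, 1.39 and 1.55 for CREB3L2 and 0.38, 0.60 and 0.58 for CREB3. EIF2AK3 differed by 0.43, 0.47 and 0.42 and ATF6 by 0.21, 0.28 and 0.25. ATF6B differed by 0.41, 0.45 and 0.47 and MBTPS2 by 0.59, 0.56 and 0.59. With 1 library left out, the calls of MBTPS2 were lost in 9, 13 and 10 of 48 fits at these times and that of ATF6 at 24 h in 14 of 48. Wherever it was kept, the shXBP1 library that stood apart entered the spread of MBTPS2 in these fits.

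Between shXBP1 clones 1 and 18 there were 9 differences, in 3, 2 and 4 members at 24, 48 and 72 h, all positive. Of all genes tested, 17.1%, 24.1% and 24.6% were called at these times. The members named here also stood lower in clone 1 at 0 h, and the same 0 h libraries enter both comparisons. CREB3L2 differed by 0.56, 0.68 and 0.87 and EIF2AK3 by 0.32, 0.60 and 0.65 at the 3 times. CREB3 differed by 0.30 at 24 h and 0.32 at 72 h, and MBTPS2 by 0.59 at 72 h. The 72 h values of CREB3 and MBTPS2 were not called without the library of shXBP1 clone 18 at 72 h that stood apart. Groups of 3 libraries were too small to be searched for single outlying values.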

How the results depend on the processing

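Scaling by the DESeq2 size factors in edgeR, DESeq2 itself and limma on the deposited log2 table left the number of members called within 1.5 times in every comparison where they were run. The other settings did not. A fit of all 48 libraries called 3 in place of 6 members in shIRE1 clone 1 at 24 h, 3 in place of 5 in shXBP1 clone 1 at 48 h, and 2 in place of 1 at 24 h and 5 in place of 3 at 72 h in shXBP1 clone 18. Without a filter on low counts, 3 were called in shXBP1 clone 1 at 48 h, 2 in shXBP1 clone 18 at 24 h and 1 in place of 0 in its step from 48 to 72 h. With only the 6 libraries compared, 0 were called in shXBP1 clone 1 at 24 h in place of 3, 2 at 48 h in place of 5, and 2 in shXBP1 clone 18 at 24 h. Between shIRE1 clone 1 and shXBP1 clone 18 alone, 2, 2 and 3 members differed at 24, 48 and 72 h in place of 4, 6 and 5.

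Across pairs of 1 shIRE1 and 1 shXBP1 clone, 9 differences took the opposite sign where the pair or the main comparison was called. Changes of sign where neither was called were not counted. Between shIRE1 clone 1 and shXBP1 clone 1, CREB3 was 0.10 at 48 h. Between shIRE1 clone 1 and shXBP1 clone 18, EIF2AK3 was 0.017, CREB3L2 0.077 and ATF6B 0.30 at 24 h, CREB3 was 0.13 at 48 h, and MBTPS2 was 0.20 and CREB3 0.41 at 72 h. Between shIRE1 clone 3 and shXBP1 clone 1, CREB3 was -0.044 at 24 h and ATF6B -0.30 at 72 h. The 72 h change of MBTPS2 in shXBP1 clone 18 was -0.41 with the library that stood apart and -0.091 without it, against -0.21 in shIRE1 clone 1, so the difference is negative without it. The cause of the other reversals was not tested.

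With 1 library left out in turn, the number called ranged from 2 to 5 in shXBP1 clone 1 at 48 h, 0 to 2 in shXBP1 clone 18 at 24 h, 0 to 4 there at 48 h, and, between the shXBP1 clones, 1 to 5, 2 to 4 and 2 to 4 at 24, 48 and 72 h. Such fits assume that a group of 2 varies like the others.

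The labels do not say what a replicate number marks. Of 72 pairs of same-numbered libraries of 2 times in a clone, 22 had a correlation of deviations above 0.1, and the median was -0.0056 (-0.81 to 0.67). All 3 correlations passed 0.1 in 1 of 24 sets, shXBP1 clone 1 at 0 and 72 h (0.365 to 0.652), where the block changed the call of no member. The fit with the replicate number as a block called 2 in place of 5 members in shXBP1 clone 1 at 48 h. It also ended the calls of ATF6 in shIRE1 clone 1 and CREB3 in shIRE1 clone 3 at 24 h, of MBTPS2 in shXBP1 clone 1 at 24 h and of the rise of MBTPS1 in shIRE1 clone 3 from 24 to 48 h (edgeR adjusted p = 0.0552, 0.0747, 0.0538 and 0.0599). Without a filter on low counts, CREB3 was not called between shIRE1 and shXBP1 at 48 h or between the shXBP1 clones at 24 and 72 h, nor ATF6 between the shIRE1 clones at 24 and 72 h (edgeR adjusted p = 0.205, 0.194, 0.135, 0.175 and 0.110).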
